A study of Mus musculus with 32 samples.

Results

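In neural stem cells (NSCs) treated with IFN-β, 9 coding genes were picked for a large gain in total RNA counts with little gain in ribosome footprints, which held for the footprints of most of them but not of Tuba8 or, at 14 h, of Art3. These host genes were Art3, Cyren, Rprd1b, Vat1, Angptl6, Zfp318, Tuba8, Tmprss2 and Zbtb40, 9 of 21119 protein-coding genes present in both kinds of count table. The rule asked that total RNA counts jumped at 2 h or 14 h while footprints on their own coding sequence (CDS) hardly moved. The changes of the host genes in total RNA, in footprints and in the ratio of both are therefore the reason for the choice. They are given here as descriptions, and a threshold passed by a host is no independent test of it. For each of them the gene on the other DNA strand was sought within 50 kb and its footprints were read.

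The cells were NSCs from the ventricular-subventricular zone of C57BL/6 mice aged 8-12 weeks, grown ex vivo. Vehicle or IFN-β was given, and cells were taken at 2 h or at 14 h. Cultures of all 4 groups were exposed to cycloheximide before lysis. Each group held 4 numbered replicates, numbered 2, 3, 5 and 6 at 2 h and 1, 2, 3 and 4 at 14 h, and each lysate gave 1 footprint library and 1 total RNA library. Library values below follow that order. Biological replicates were, per the methods, separate mice or cultures from separate mice, and the labels do not name the animal behind each number.

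Type I interferon binds its receptor at the cell surface and switches on target genes, many of which carry interferon-stimulated response elements (ISREs) in their promoters. Ribo-Seq reads ribosome-protected mRNA fragments, which come from the strand that is translated. Where genes overlap, total RNA reads can be assigned to the right gene only if the counting uses their strand. The strand setting of the counting is not given in the sources used here, so reads of a host gene and of its antisense neighbour cannot be told apart in these total RNA counts, although the total RNA kit was a directional one. Total RNA counts listed for a gene may therefore be reads of the other strand, which was not tested, and every total RNA and TE value below is subject to that limit.

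Footprint libraries held 2956297 to 10505108 counts and total RNA libraries 1370008 to 7877753. Genes with an annotated gene on the other strand took 39.4% to 41.3% of the counts of a footprint library, but 83.8% to 93.3% of those of a total RNA library. Footprint and total RNA counts also differed widely in single genes of these cells. Actb, the cytoplasmic actin gene, had 18780 to 73117 footprints and only 47 to 854 total RNA counts per library. Sox2, a stem cell transcription factor, had 212 CPM (counts scaled to library size) of footprints in vehicle at 14 h. Its total RNA counts were 0 in all 16 libraries. Whether Actb or Sox2 has a gene on the other strand was not examined. All 9 NSC markers were detected in footprints, and none of 3 endothelial markers reached 10 counts in a library. Of 5 microglial markers, Aif1 and Cx3cr1 were at 0 and 1 was detected, with a summed level of 29.8 to 36.2 CPM in vehicle and 18.1 to 21.2 CPM with IFN-β at 14 h. All 3 neuroblast markers, 1 of 3 oligodendrocyte markers and 1 of 2 mural markers were detected as well. Footprints of Foxj1, an ependymal marker, were 16.9 to 23.7 CPM in vehicle at 14 h and 42.3 to 56.6 CPM with IFN-β, and the part of such cells in the values of the host genes was not tested. In cultures of mixed cells, fewer cells of a type and less RNA per cell cannot be told apart.

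ISRE letters were searched in the promoters of the hosts and of the genes set against them, and the windows that held them in Cxcl10, Tmem140 and Isg15 are printed here to show the element that interferon targets carry. The letters GAAA, any 2 bases (NN) and GAAA again, searched as this run on both strands with overlapping matches kept, were found in 3.44% of 32851 RefSeq promoter windows and in 3.99% of 27025 genes (GRCm38.p6, 250 bases before to 50 after the start). Of the 9 hosts, 8 had a window, and 0 of these 8 held a match, a share from which nothing can be read beside so low a background. Zbtb40 had no window. The hosts' other-strand neighbours Cxcl10 and Tmem140, described below, each held 1 match, at 213 and 63 bases before the start, and Isg15, whose sequence is copied opposite Zfp318, held 3 overlapping matches, of which the middle one lies 72 bases before the start. Ifi35 had a window without a match. Tgm2, A230050P20Rik, Mx2, Gm15856 and Usp18 had no window. Capitals mark the match. The windows lie at chr5:92349083-92349112 on the minus strand, chr6:34863073-34863102 on the plus strand and chr4:156200871-156200900 on the minus strand.
Cxcl10: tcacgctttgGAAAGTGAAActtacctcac
Tmem140: gttaaaaaacGAAAGTGAAAtcagctgaga
Isg15: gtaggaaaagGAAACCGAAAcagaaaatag
A match of letters is a description of the window, not a bound site.

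Across the 9 hosts, 7 passed the threshold in total RNA at 2 h (edgeR's quasi-likelihood test, adjusted p under 0.05, all 9 tested), while 0.722% of all genes tested were called higher. At 14 h, 8 hosts were tested and 8 passed, against 3.47% of all genes. The median log2 fold change of the hosts in total RNA was 3.79 at 2 h and 5.47 over the 8 tested at 14 h, beside 0.04 and -0.01 over all genes tested. With Tmprss2 at its lower bound the 14 h median was 5.13. In footprints, 1 of 7 hosts tested was called higher at 2 h, beside 5.25% of all genes. At 14 h, 3 of 8 were called higher and 1 lower, beside 26.2% and 26.3% of all genes. Median footprint changes were -0.16 at 2 h and 0.13 at 14 h. These footprint fits did not pair libraries by replicate number. With that number as a block, Vat1 was also called, lower, at 2 h, where 3538 of 12104 genes were called. At 14 h the block added Zfp318 (higher) and Angptl6 (lower), where 7609 of 12113 genes were called. The translational efficiency (TE, the change of footprints relative to total RNA) was called lower (adjusted p under 0.1) in 7 of 9 hosts after 2 h, beside 0.234% of all genes, and in 8 of 8 after 14 h, beside 3.95%. In total RNA, all IFN-β libraries lay above all vehicle libraries in 8 of 9 hosts tested at 2 h and in 8 of 8 at 14 h, beside 2.82% and 6.52% of all genes. The same held in footprints for 1 of 7 hosts at 2 h and 3 of 8 at 14 h, beside 7.77% and 22.4%. Without IFN-β replicate 2 or without replicate 6, 4 of 7 hosts tested passed in total RNA at 2 h. Over all genes, 30 of 10980 and 40 of 11415 were called in these fits. Without any single IFN-β library 4 of 4 hosts passed at 14 h, beside 171 to 271 of 7023 to 7218 genes. Without IFN-β replicate 2, 2 of 7 hosts passed in footprints at 14 h, beside 5611 of 11943 genes called in either direction. These counts follow from how the hosts were chosen and support nothing by themselves.

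The label of the set held in part. An induced coding gene, with footprints at least 1 log2 unit higher under IFN-β, lay on the other strand of 5 of the 9 hosts. It overlapped the host in 4 of them (Art3, Cyren, Rprd1b and Angptl6) and ended 46 bp from it in Vat1. No such coding gene lay within 50 kb of Zfp318, Tuba8, Tmprss2 or Zbtb40. Where several coding genes lay on the other strand within 50 kb, the one with the highest footprint change was taken. Art3 had 5 of them and Vat1 had 4. The share of all coding genes with an induced neighbour of this kind was not computed, so 5 of 9 cannot be read as high or low. The own footprints of Tuba8 at both times, and of Art3 at 14 h, were several-fold higher with IFN-β, against the rule that names the set. Of the 5 induced neighbours, 4 stood tail to tail with the host, their 3' ends facing, and 1 was nested inside it. For comparison, 47.3% of 3180 coding genes that overlap a single coding gene on the other strand were arranged tail to tail, and 8.68% had that gene nested inside them. This background holds overlapping pairs only, whereas the induced neighbour of Vat1 does not overlap Vat1.

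**Figure D1:**
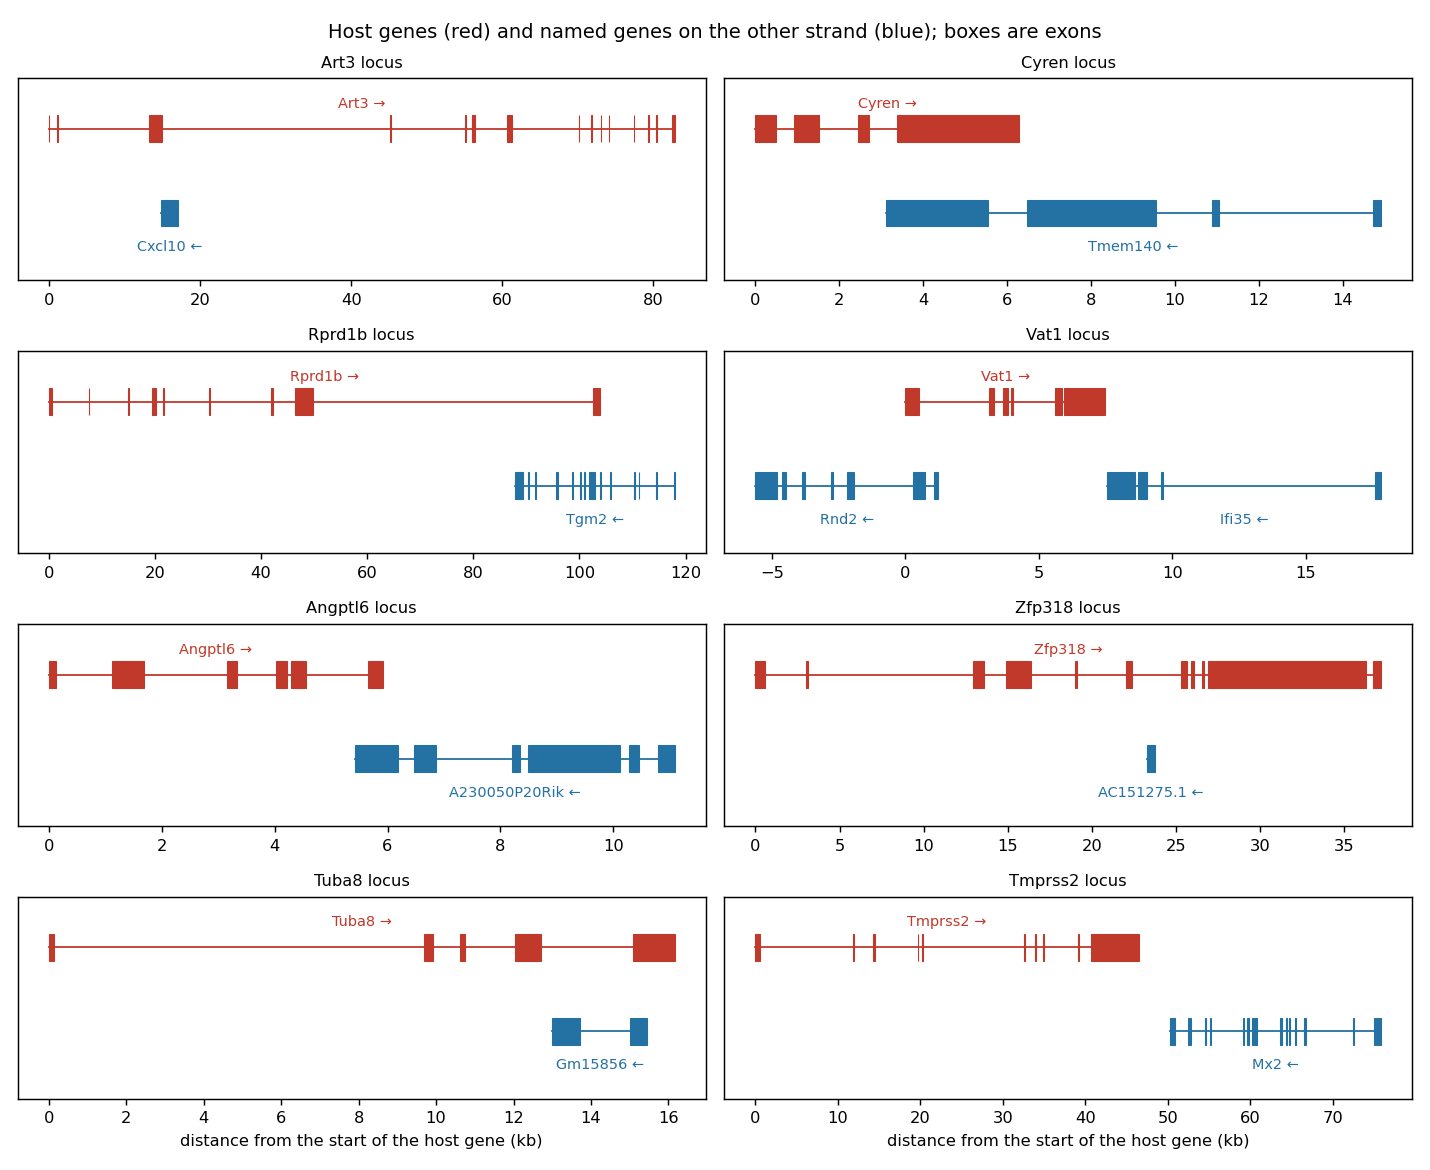
Gene models of 8 host loci, with the host gene in red, named genes on the other strand in blue, exons as boxes and introns as lines. Cxcl9 and Cxcl11 at the Art3 locus are not drawn. The horizontal axis is the distance in kb from the start of the host gene along its direction, and arrows give the direction of each gene. Cxcl10, the Isg15 copy AC151275.1 and Gm15856 lie inside their hosts, the blue genes of Cyren, Rprd1b and Angptl6 overlap the end of the host, Ifi35 and Mx2 lie just beyond the ends of Vat1 and Tmprss2, and Rnd2 overlaps the start of Vat1.

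Art3, a member of the ADP-ribosyltransferase family, carried the highest total RNA change of all coding genes called, at both times. Art3 spans chr5:92331827-92414628 on the plus strand (ENSMUSG00000034842, mm10). Total RNA counts at 2 h were 90, 68, 60 and 80 with vehicle and 20262, 62922, 27468 and 11973 with IFN-β (log2 fold change 8.41, SE 0.61). The 14 h counts were 49, 40, 10 and 34 with vehicle and 5568, 6638, 7030 and 4726 with IFN-β (7.04, SE 0.28). Every IFN-β library was above every vehicle library, with replicate 3 at 2 h far above the others. Art3 footprints were nearly absent at 2 h, with 1, 3, 0 and 0 counts in vehicle and 3, 5, 1 and 4 with IFN-β, too few to be tested. By 14 h they had reached 11, 16, 30 and 25 counts against 1, 3, 3 and 2 (log2 fold change 3.51, SE 0.38). The Art3 footprints were thus low but separated between the groups at 14 h, and the log2 change in TE of Art3 was -3.60 at 14 h. The 2 h value of -6.54 rested on 4 vehicle footprints in all, was -5.12 without vehicle replicate 3, and lost its call with the replicate block, without IFN-β replicate 2 or 5, and without any single vehicle library.

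Cxcl10, a chemokine that attracts T cells through CXCR3, lies whole within Art3 on the minus strand (chr5:92346638-92348889). Of its 2252 bp, 133 overlap exons of Art3. Cxcl11, listed as a polymorphic pseudogene, is also nested in Art3 on the minus strand. Its fitted footprint log2 fold change was 4.06 at 2 h, a value given here without its counts or a call. At 14 h no change is given for Cxcl11, because both groups held 3 footprints or fewer. Cxcl9, a coding gene on that strand, lies 3747 bp before the start of Art3. Its footprints at 14 h were 0 with vehicle and 2 to 10 per library with IFN-β, at least 10.0-fold higher. Footprints of Cxcl10 at 2 h were 148, 127, 166 and 129 with vehicle and 11792, 15178, 17557 and 10160 with IFN-β (log2 fold change 6.90, SE 0.29). After 14 h the counts were 2, 5, 10 and 7 against 959, 2913, 3920 and 5250 (9.36, SE 0.29). The groups did not overlap at either time, and the larger change at 14 h stood on a vehicle level of 0.697 CPM, where that at 2 h was 18.1 CPM. In the presence of IFN-β the footprint level of Cxcl10 was 2163 ± 737 CPM (SD, n = 4) at 2 h and 475 ± 128 CPM at 14 h, and the total RNA level of Art3 was 5295 ± 3428 and 2249 ± 151 CPM, so each was lower at 14 h in tables that were normalised separately. The total RNA counts given to Cxcl10 itself were few, 56, 166, 72 and 17 at 2 h and 6, 1, 7 and 5 at 14 h with IFN-β. Its vehicle libraries held 0, 0, 0 and 2 counts at 2 h (a ratio of 140, 95% counting interval 38.4 to 1160) and 0 in all 4 at 14 h, which makes it at least 4.64-fold higher there, with 3 counts over the 4 libraries taken as the floor. Replicate 3 was the highest IFN-β library at 2 h, and replicate 6 the lowest, for total RNA of Art3 and of Cxcl10 alike.

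Cyren, a regulator of non-homologous end joining in DNA repair, spans chr6:34871771-34878060 on the minus strand and shares 2168 bp of exon with Tmem140. In total RNA, counts at 2 h were 4, 16, 0 and 11 with vehicle and 441, 930, 307 and 184 with IFN-β (log2 fold change 5.76, SE 0.64). At 14 h the vehicle libraries held 0, 0, 0 and 3 counts and the IFN-β libraries 92, 119, 151 and 85, a ratio of 109 (95% counting interval 37.1 to 531). Total RNA of Cyren was therefore close to nothing without IFN-β, although its own CDS carried footprints in every library. These were 19, 22, 27 and 26 with vehicle and 27, 14, 18 and 16 with IFN-β at 2 h (log2 fold change -0.08, SE 0.24). Those at 14 h were 26, 36, 25 and 53 against 14, 22, 18 and 30 (-0.33, SE 0.22). The groups overlapped at both times.

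Tmem140, which encodes a transmembrane protein, faces Cyren tail to tail (chr6:34863146-34874946, plus strand). Its footprints at 2 h were 0, 4, 3 and 0 with vehicle and 39, 46, 40 and 23 with IFN-β (log2 fold change 4.60, SE 0.64). At 14 h all 4 vehicle libraries were at 0 and the IFN-β libraries held 6, 20, 24 and 32, at least 35.8-fold higher. The pattern of Tmem140 in total RNA was the reverse of that of Cyren, because its total RNA counts, 325, 277, 181 and 311 with vehicle and 369, 207, 293 and 218 with IFN-β at 2 h, overlapped between the groups (-0.18, SE 0.26). At 14 h the change was -0.24 (SE 0.20). In this pair, then, the gene with the induced footprints and the gene with the induced total RNA counts were on opposite strands.

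Rprd1b, whose product binds the C-terminal domain of RNA polymerase II, spans chr2:158028497-158132297 on the plus strand and overlaps Tgm2 over 15896 bp, of which 370 bp are exon of both genes. Its total RNA counts at 2 h were 190, 161, 116 and 138 with vehicle and 2419, 1831, 2811 and 2351 with IFN-β (log2 fold change 3.79, SE 0.34). The libraries at 14 h gave 72, 39, 11 and 59 against 719, 740, 721 and 745 (3.65, SE 0.23). The IFN-β libraries were all above the vehicle libraries by a wide margin. Footprints of Rprd1b at 2 h were 284, 186, 248 and 232 against 248, 160, 218 and 195, or 29.9 ± 2.94 and 31.4 ± 0.945 CPM (log2 fold change 0.07, SE 0.09). At 14 h they were 172, 320, 270 and 328 against 85, 186, 180 and 266, or 32.2 ± 1.01 and 27.8 ± 1.09 CPM (-0.22, SE 0.07). The 14 h groups did not overlap once scaled, with IFN-β the lower, and the call of this change was lost with DESeq2 and when either vehicle replicate 3 or IFN-β replicate 2 was left out.

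Tgm2, the tissue transglutaminase that crosslinks proteins, had footprints of 17, 20, 17 and 13 with vehicle and 335, 270, 401 and 271 with IFN-β at 2 h (log2 fold change 4.52, SE 0.18). The 14 h counts were 5, 10, 11 and 3 against 46, 88, 110 and 173 (4.19, SE 0.27). The footprint change of Tgm2 and the total RNA change of Rprd1b were thus of similar size at 2 h and at 14 h. Total RNA given to Tgm2 was sparse, with 7, 12, 7 and 5 counts in vehicle and 29, 27, 27 and 23 with IFN-β at 2 h (1.59, SE 0.35), and no more than 11 in any library at 14 h.

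Vat1, a vesicle membrane protein of the quinone oxidoreductase family, spans chr11:101458745-101466230 on the minus strand. Total RNA counts at 2 h were 18, 13, 11 and 11 with vehicle and 92, 51, 41 and 48 with IFN-β (log2 fold change 1.91, SE 0.34). After 14 h the counts were 3, 1, 0 and 7 against 243, 222, 275 and 151 (5.85, SE 0.36). The total RNA change of Vat1 was thus much larger at 14 h than at 2 h, a difference that was not tested. Its footprints, 587, 582, 512 and 401 against 484, 281, 380 and 286 at 2 h, gave a log2 fold change of -0.28 (SE 0.13). With the replicate number as a block this change was -0.27 and was called lower, in a fit that called 3538 of 12104 genes. At 14 h the footprints were 231, 540, 436 and 613 against 191, 435, 402 and 648, or 52.5 ± 7.05 and 64.3 ± 4.39 CPM (0.28, SE 0.09). The 14 h groups did not overlap once scaled, with IFN-β the higher. This change was called higher, and the call was lost when IFN-β replicate 4 was left out (0.23).

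Ifi35, an interferon-induced leucine zipper protein, ends 46 bp from the end of Vat1 on the plus strand, without an overlap in the annotation. Its footprints at 2 h were 10, 8, 4 and 4 with vehicle and 109, 66, 60 and 46 with IFN-β (log2 fold change 3.69, SE 0.33). Those at 14 h were 1, 5, 4 and 5 against 391, 1043, 1105 and 1612 (8.41, SE 0.17). So the footprints of Ifi35, like the total RNA of Vat1, had the larger change at 14 h. Total RNA given to Ifi35 was 13, 8, 4 and 2 in vehicle and 30, 23, 20 and 15 with IFN-β at 14 h (1.22, SE 0.40). Rnd2, which does overlap the start of Vat1 on the other strand, had footprint changes of -0.62 (SE 0.37) at 2 h and 0.58 (SE 0.20) at 14 h.

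Angptl6, a secreted protein of the angiopoietin-like family, spans chr9:20873808-20879727 on the minus strand and shares 265 bp of exon with A230050P20Rik. In total RNA, counts at 2 h were 75, 45, 35 and 77 with vehicle and 124, 91, 88 and 71 with IFN-β, with overlapping groups (log2 fold change 0.51, SE 0.27). The libraries at 14 h gave 19, 16, 6 and 22 against 249, 275, 280 and 192 (3.51, SE 0.21). Angptl6 was the host whose total RNA was separated between the groups at 14 h only. Its footprints at 2 h were 73, 71, 55 and 63 against 51, 40, 47 and 53 (-0.17, SE 0.17). Those at 14 h were 23, 74, 68 and 80 against 14, 36, 24 and 55 (-0.53, SE 0.21). They went the other way from its total RNA. This change did not pass the threshold with the main settings. It passed with the replicate block (-0.56), without a count filter (-0.54) and with total-count scaling (-0.54). It also passed without vehicle replicate 1 (-0.66) or IFN-β replicate 4 (-0.68).

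A230050P20Rik, a coding gene known by its clone name, faces Angptl6 tail to tail (chr9:20868642-20874307, plus strand). Its footprints at 2 h were 34, 24, 15 and 16 with vehicle and 52, 24, 19 and 18 with IFN-β (log2 fold change 0.61, SE 0.34). At 14 h they were 10, 17, 12 and 13 against 54, 124, 104 and 117 (3.34, SE 0.19). The footprints of A230050P20Rik and the total RNA of Angptl6 thus overlapped between groups at 2 h and were separated at 14 h. Within the pairs of replicate number, however, footprints of A230050P20Rik were higher with IFN-β in 4 of 4 at 2 h. With the replicate block the change was 0.63 and was called higher, in a fit that called 3538 of 12104 genes. Total RNA of A230050P20Rik changed by 0.05 (SE 0.36) at 2 h and -0.44 (SE 0.27) at 14 h, with overlapping groups, as in the pair of Tmem140 and Cyren.

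**Figure D2:**
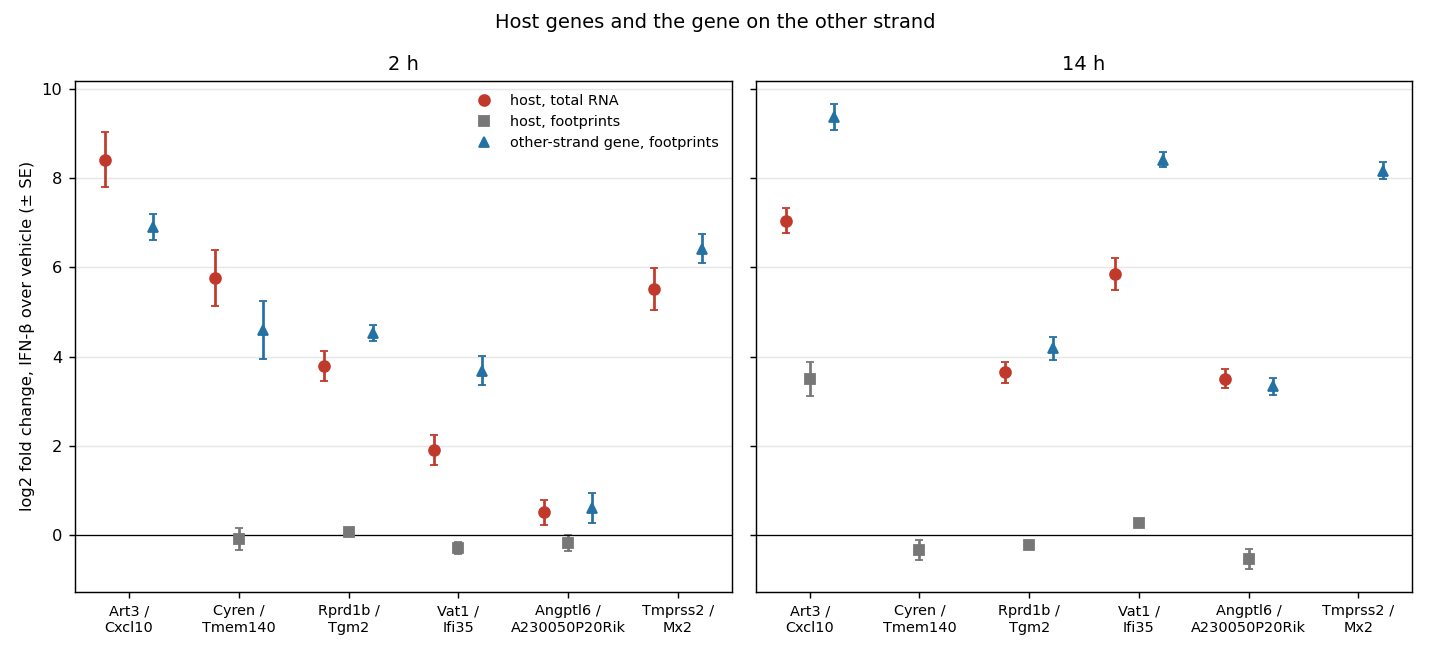
Log2 fold changes of IFN-β over vehicle (vertical axis, error bars 1 SE) at 2 h (left) and 14 h (right) for 6 host genes and the gene on their other strand. Red circles are total RNA of the host, grey squares footprints of the host and blue triangles footprints of the other-strand gene, and genes that were not tested or had 3 or fewer vehicle counts are left out. Grey squares lie near 0 except for Art3 at 14 h (3.51), while red and blue symbols are both low in the Angptl6 pair at 2 h (0.51 and 0.61) and both high at 14 h (3.51 and 3.34).

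Zfp318, a zinc finger protein best known from B cells, where it governs the choice between IgM and IgD transcripts, spans chr17:46383731-46420920 on the plus strand. Its total RNA counts at 2 h were 14, 23, 10 and 28 with vehicle and 225, 406, 178 and 110 with IFN-β (log2 fold change 3.44, SE 0.35). The 14 h counts were 6, 3, 3 and 13 against 276, 284, 474 and 206 (5.13, SE 0.33). The groups were far apart at both times. Its footprints were 438, 327, 316 and 330 against 273, 193, 331 and 244 at 2 h (-0.16, SE 0.10). After 14 h the counts were 302, 515, 463 and 515 against 187, 395, 389 and 542, or 53.6 ± 3.66 and 59.1 ± 2.48 CPM (0.14, SE 0.07).

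The nearest coding gene with footprints on the other strand of Zfp318, Ttbk1 at 21527 bp, had a footprint change of 0.08 (SE 0.19) at 2 h and 0.49 (SE 0.20) at 14 h. Inside an intron of Zfp318, on the minus strand, the annotation places the processed pseudogene AC151275.1 (chr17:46407004-46407484), which has no row in the count tables. This stretch matches the mRNA of Isg15. An alignment of the Isg15 transcript to the locus covered 615 columns, of which 590 (95.9%) were identical and 1 was a gap, over chr17:46406962-46407575. None of the 614 bases of the copy lies in an exon of Zfp318. The start of the Isg15 CDS and the matching stretch of the copy (chr17:46407398-46407486, minus strand) are printed because they show how near the sequences are. Capitals mark the bases that differ, 1 of which is missing from the copy.
Isg15: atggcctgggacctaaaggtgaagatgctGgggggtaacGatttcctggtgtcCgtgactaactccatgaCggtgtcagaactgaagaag
Copy in Zfp318: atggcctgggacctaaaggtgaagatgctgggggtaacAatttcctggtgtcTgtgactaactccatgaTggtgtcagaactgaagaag
Isg15, the ubiquitin-like protein that is attached to other proteins under interferon, had footprints of 26, 23, 17 and 19 with vehicle and 2552, 1996, 2203 and 1399 with IFN-β at 2 h (log2 fold change 6.87, SE 0.22). Those at 14 h were 4, 4, 6 and 3 against 3541, 9163, 9442 and 13110 (11.33, SE 0.14). Total RNA given to Isg15 was 0 to 5 counts per library at 14 h over vehicle and IFN-β. Whether reads of Isg15 were placed at the copy was not tested, since the reads were not analysed here.

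Tmprss2, a transmembrane serine protease that cleaves viral glycoproteins at the cell surface, spans chr16:97564682-97611195 on the minus strand. Total RNA counts at 2 h were 1, 2, 0 and 1 with vehicle and 63, 87, 49 and 31 with IFN-β (log2 fold change 5.52, SE 0.46). At 14 h all vehicle libraries were at 0 and the IFN-β libraries held 7, 5, 10 and 4 counts, at least 6.34-fold higher. Among 16 footprint libraries, 1 held a single footprint on Tmprss2 and the others held 0, so its own translation was not detectable at this depth.

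Mx2, a dynamin-like antiviral GTPase that the annotation lists as a polymorphic pseudogene, lies 3781 bp beyond the end of Tmprss2 on the plus strand, tail to tail with it. As it is not listed as coding, it was named after its values were seen. Its footprints at 2 h were 10, 7, 6 and 7 with vehicle and 439, 619, 597 and 414 with IFN-β (log2 fold change 6.42, SE 0.33). The libraries at 14 h gave 1, 1, 5 and 1 against 201, 510, 512 and 666 (8.16, SE 0.19). Total RNA of Mx2, 1, 4, 2 and 1 against 59, 75, 42 and 14 at 2 h, was separated between the groups (4.27, SE 0.53) and at 14 h came to 1, 1, 0 and 0 against 4, 0, 7 and 2. With IFN-β, total RNA of Tmprss2 was 10.0 ± 2.90 CPM at 2 h and 2.39 ± 0.708 CPM at 14 h, and that of Mx2 was 8.04 ± 3.66 and 1.19 ± 0.972 CPM, so both stood lower at 14 h in tables normalised separately. Footprints of Mx2 with IFN-β were 82.8 ± 30.6 CPM at 2 h and 72.4 ± 3.94 CPM at 14 h, a difference within the spread at 2 h.

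Tuba8, an alpha-tubulin, spans chr6:121210696-121226854 on the plus strand and did not meet the rule for its footprints. In total RNA, counts at 2 h were 5, 2, 1 and 4 with vehicle and 120, 109, 106 and 61 with IFN-β (log2 fold change 4.82, SE 0.36). At 14 h they were 2, 2, 0 and 1 against 29, 30, 31 and 14 (3.81, SE 0.44). Its footprints were 14, 11, 11 and 11 against 54, 49, 64 and 35 at 2 h (2.38, SE 0.23). The 14 h counts were 14, 16, 24 and 26 against 23, 58, 50 and 82 (1.78, SE 0.19), so footprints and total RNA of Tuba8 were both higher with IFN-β. Footprints changed by less than total RNA, and TE was lower by a log2 change of -2.41 at 2 h and -2.13 at 14 h.

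No coding gene lies on the other strand of Tuba8 within 50 kb. The antisense RNA gene Gm15856 is nested inside its last part (chr6:121223692-121226153, minus strand) and shares 368 bp of exon with it. Gm15856 had total RNA counts of 9, 11, 12 and 4 with vehicle and 54, 53, 51 and 40 with IFN-β at 2 h (log2 fold change 2.22, SE 0.39). After 14 h the counts were 0, 1, 0 and 1 against 33, 34, 46 and 18, a ratio of 47.9 (95% counting interval 13.0 to 400). Both genes of this locus therefore had more total RNA counts with IFN-β, and without a known strand setting the reads of one cannot be told from those of the other. Usp18, the protease that removes ISG15 from proteins, starts 19051 bp beyond the end of Tuba8 on the same strand, and its footprints changed by 6.69 (SE 0.31) at 2 h and 11.31 (SE 0.21) at 14 h. Total RNA given to Usp18 was 28, 159, 15 and 53 against 71, 92, 42 and 21 at 2 h, with overlapping groups.

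Zbtb40, a zinc finger protein with a BTB domain, spans chr4:136979732-137048801 on the minus strand. Its total RNA counts at 2 h were 5, 13, 6 and 6 with vehicle and 22, 30, 27 and 12 with IFN-β, which did not overlap once scaled but did not pass the threshold (log2 fold change 1.41, SE 0.37). Those at 14 h were 2, 0, 0 and 3 against 96, 123, 135 and 65 (5.82, SE 0.41). Footprints of Zbtb40 were 142, 143, 133 and 121 against 103, 99, 107 and 86 at 2 h (-0.16, SE 0.16). The libraries at 14 h gave 104, 217, 176 and 213 against 67, 172, 153 and 193 (0.12, SE 0.09), with overlapping groups at both times. Zbtb40 was the host without a candidate on the other strand, where only the small nucleolar RNA gene Gm23834 is annotated and held at most 2 total RNA counts in a library.

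**Figure D3:**
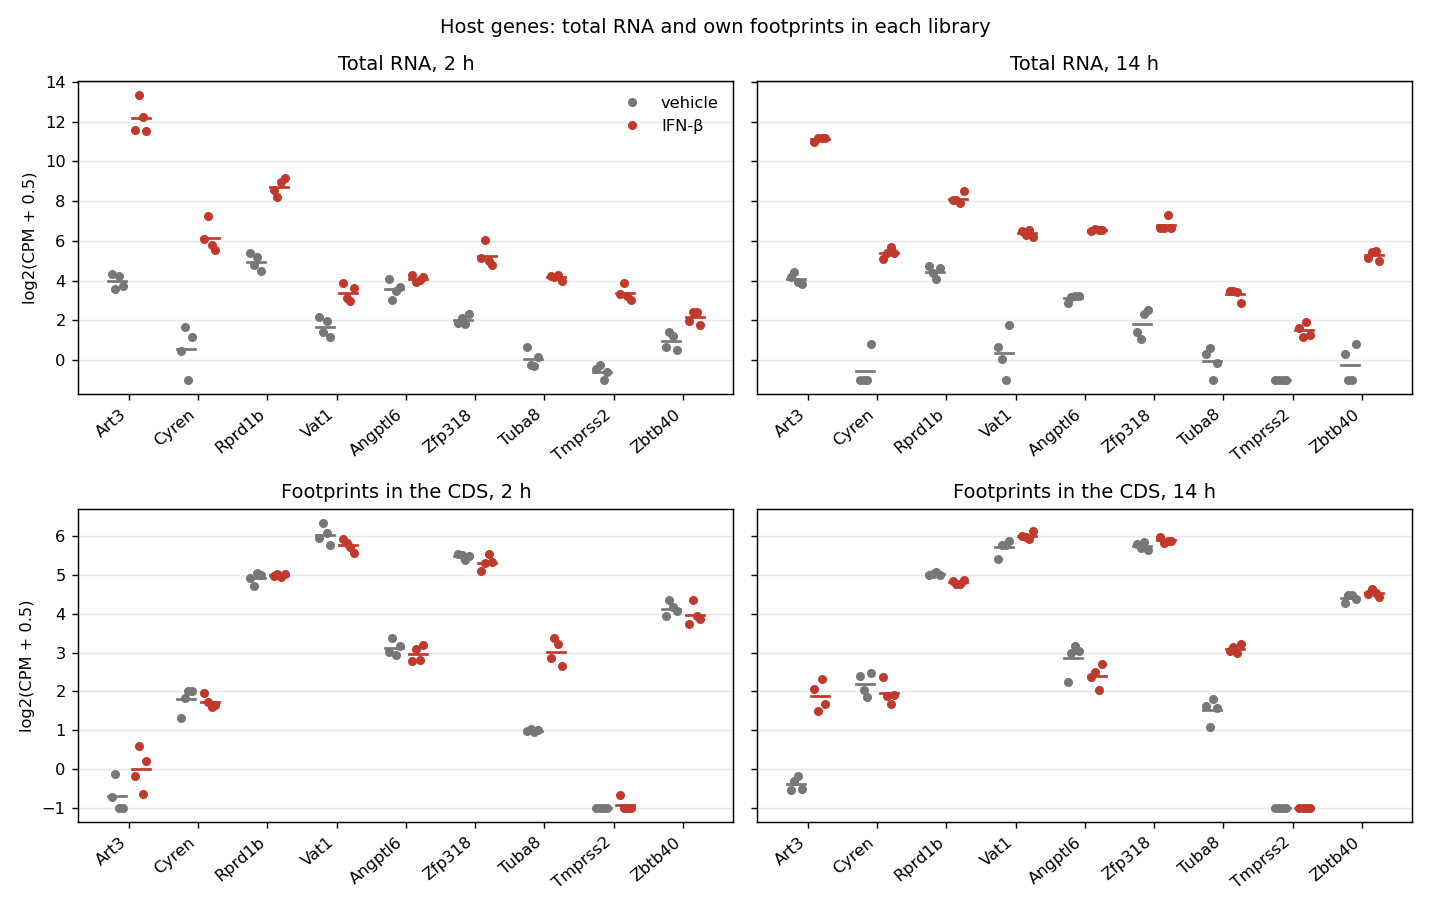
Values of the 9 host genes in each library, as log2 of CPM with a pseudocount of 0.5, for total RNA (top) and footprints in the CDS (bottom) at 2 h (left) and 14 h (right). Points are libraries, 4 per group, grey for vehicle and red for IFN-β, and bars are group means. In total RNA the red points lie above the grey points for every host except Angptl6 at 2 h, where they overlap, while in footprints the groups lie far apart only for Tuba8 and, at 14 h, Art3.

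Hosts differed in when they changed. Art3, Cyren, Rprd1b, Tuba8 and Tmprss2 were already high in total RNA at 2 h, with log2 fold changes from 3.79 to 8.41, and Zfp318 went from 3.44 at 2 h to 5.13 at 14 h, whereas Vat1, Zbtb40 and Angptl6 were at 0.51 to 1.91 at 2 h and at 3.51 to 5.85 at 14 h. No test was made of the difference between times. The library with the highest scaled count varied, with replicate 3 the highest IFN-β library at 2 h for 5 of 9 hosts and replicate 6 the lowest for 6 of 9.

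The hosts were drawn from a larger number of coding genes with the same relation of counts. Of 58 coding genes called in total RNA at 2 h with a log2 fold change of at least 1, 45 had footprints that could be tested, and 16 of these had a footprint change within 1 log2 unit of 0. Cyren, Rprd1b, Vat1 and Zfp318 were among the 16. At 14 h the numbers were 144, 109 and 66, and the 66 held Angptl6, Cyren, Rprd1b, Vat1, Zbtb40 and Zfp318. An overlapping coding gene on the other strand with footprints at least 1 log2 unit higher was found for 5 of the 16 at 2 h. At 14 h it was found for 18 of the 66. These counts include the hosts named, and the share over all coding genes was not computed. They therefore cannot be read as high or low.

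Outside the 9 hosts, coding genes that overlap a single coding gene on the other strand were compared as a background, 1346 at 2 h and 1058 at 14 h. Across these genes the total RNA change had a Spearman correlation of 0.33 at 2 h and 0.46 at 14 h with the footprint change of the gene on the other strand, and of 0.18 and 0.12 with that of the gene itself. The points share libraries, and each gene of a pair can appear as the host and as the neighbour, so these values are descriptions. Total RNA was called higher in 42 of the 1058 genes at 14 h, and of these 42, 34 had a neighbour called higher in footprints and 15 were called higher in their own. Over all 1058 the shares called higher were 25.9% for the neighbours and 26.2% for the genes themselves. At 2 h, 5 genes were called in total RNA, all 5 with a neighbour called higher and 3 called higher in their own footprints. Over all 1346 the shares called higher were 2.90% for the neighbours and 4.38% for the genes themselves. Where the neighbour's footprints were at least 2 log2 units higher, total RNA of the gene opposite was called higher in 3 of 5 cases at 2 h and 8 of 11 at 14 h, so a strongly induced neighbour was not always matched.

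**Figure D4:**
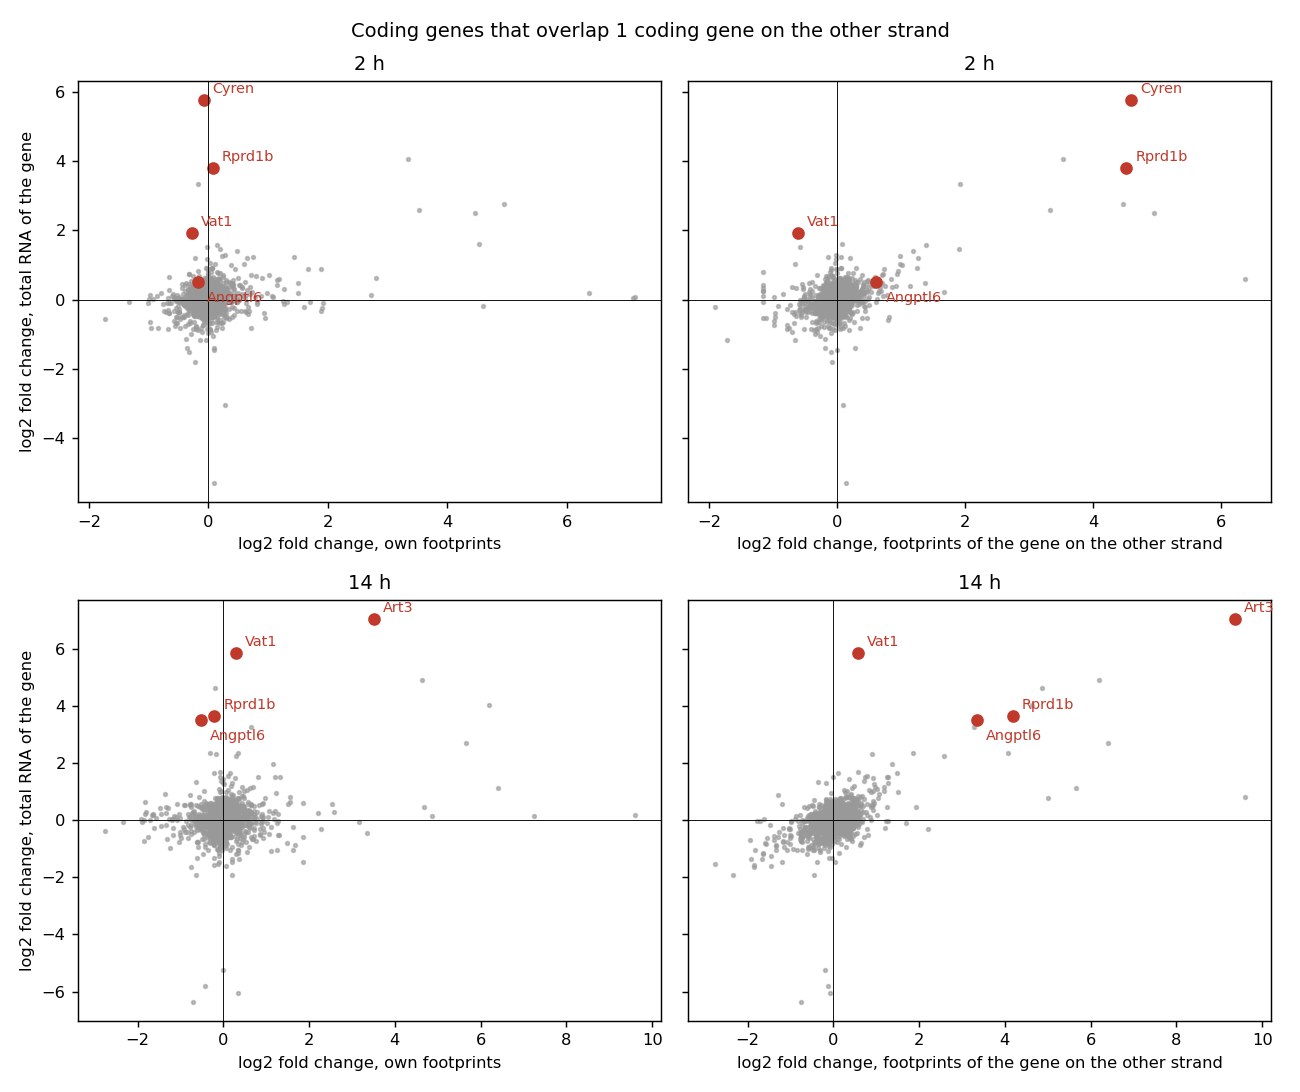
Coding genes that overlap 1 coding gene on the other strand, at 2 h (top) and 14 h (bottom). The vertical axis is the log2 fold change of total RNA, and the horizontal axis is that of the gene's own footprints (left) or of the footprints of the gene on the other strand (right). Grey dots are other genes and red dots are hosts with a tested neighbour. At 14 h Angptl6 and Rprd1b lie near 0 on the left and at 3.34 and 4.19 on the right, while Vat1 stays at 0.58 because the gene that overlaps it is Rnd2 and not Ifi35.

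The induced genes themselves were poorly covered in total RNA. Of a list of 50 interferon-stimulated genes, 44 could be tested in footprints at 2 h and all 44 were called higher, and 47 of 47 were at 14 h. In total RNA 27 and 19 could be tested, and 14 and 13 were called higher, beside the 0.722% and 3.47% of all genes. The median mean count per library of these genes at 14 h was 1.38 with vehicle and 8.25 with IFN-β in total RNA, and 7.25 and 1645 in footprints. Of the 5 induced neighbours of the hosts, 1 (Cxcl10) was called higher in total RNA at 2 h and 0 of the 3 tested at 14 h.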

How the data were processed

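The authors trimmed reads with Trim Galore 0.4.4, mapped them with Bowtie 0.12.7 to the mm10 transcriptome, discarded duplicate reads and summarised the rest by gene (SummarizeOverlaps, Union mode), and they deposited raw counts, per CDS for footprints and per whole gene for total RNA. The 32 libraries were taken to groups by their labels. Reads were not analysed here. Genes were placed with GENCODE M21 (mm10), which named 22205 genes of the footprint tables and 37607 of the total RNA tables.

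Counts were analysed with edgeR 4.0.16 in R 4.3.3 (TMM scaling, quasi-likelihood test of IFN-β against vehicle at each time, Benjamini-Hochberg adjustment over all genes tested). Genes needed at least 10 counts in at least 4 libraries. A call was an adjusted p below 0.05 (for TE below 0.1, with TE tested as the interaction of library kind and treatment). Where a group had no counts, 3 counts over its libraries were taken as the floor of a lower bound, and a group of 1 to 3 counts was given as a ratio and its 95% counting interval. Both cover counting error only, as reads carried no molecular identifiers. No change was given where both groups held 3 counts or fewer. SE is the fitted change over the square root of its F statistic. CPM are counts divided by the TMM-scaled library size, on the usual scale. Scripts were tested on simulated data. All 9 hosts were named, and for each the coding gene on the other strand within 50 kb with the highest footprint change, together with the pseudogenes and noncoding genes described. The hosts, the lists of 50 interferon genes and of markers, and the comparisons were chosen with earlier results of these data known. In footprints, libraries with the same replicate number deviated together (correlations 0.345 to 0.821 at 2 h and 0.203 to 0.434 at 14 h), so the numbers pair them. Total RNA libraries did not (-0.483 to 0.389 and -0.01 to 0.246). Alternatives were DESeq2 1.42.0, scaling by total counts, other filters, the replicate block, each library left out, and other windows for the neighbour.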

Additional observations from a re-analysis of the deposited data

Results flagged for a closer look

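In 85 groups of 4 libraries, 4 held a library far from the other 3 by Dixon's criterion, where chance gives about 1 in 20. Total RNA of Art3 in IFN-β replicate 1 at 14 h was 2025 CPM, below the other replicates at 2288 to 2342 CPM. Total RNA of Tuba8 in IFN-β replicate 4 at 14 h was 6.78 CPM, with 10.3 to 10.6 CPM in the others. Total RNA of Zfp318 in IFN-β replicate 3 at 14 h was 158 CPM, above the others at 99.7 to 100.4 CPM. Footprints of Ifi35 in vehicle replicate 1 at 14 h were 0.183 CPM, which is 1 count, with 0.479 to 0.505 CPM in the others.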

How the results depend on the processing

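No result changed direction, and 789 of 827 values of single genes recomputed under an alternative stayed on their side of the threshold. Leaving out 1 library at a time gave 4 to 7 hosts called in total RNA at 2 h, beside 30 to 74 of 10980 to 11566 genes. At 14 h it gave 4 to 8 hosts, beside 171 to 450 of 7023 to 7514 genes. The value of 4 came without IFN-β replicate 2 or 6 at 2 h and without any 1 IFN-β library at 14 h, where 4 hosts were then tested, because the filter asks for 4 libraries. With 10 counts in at least 3 libraries, an alternative added after seeing the data, the counts were 6 to 7 and 8. The calls over all genes were then 58 to 106 and 295 to 473. In footprints the ranges without 1 library were 1 host at 2 h and 2 to 5 at 14 h. The 2 came without IFN-β replicate 2. The calls over all genes were then 517 to 953 of 11962 to 12038 and 5611 to 6353 of 11889 to 12066. In TE the ranges were 5 to 7 hosts and 7 to 8. Over all genes they were 67 to 151 of 13921 to 14056 and 829 to 1123 of 13242 to 13382. For footprints of the 5 induced neighbours, 3 to 4 were called at both times. With all libraries, 5 neighbours were tested at 2 h and 4 at 14 h. The neighbours were picked for their footprint change, so counts of their calls support nothing by themselves. With the filter at a mean of 50 counts, fewer hosts were tested. Of these, 0 were called in footprints at 2 h, 2 at 14 h, 2 in TE at 2 h and 4 at 14 h. The calls over all genes were 715 of 10232, 5776 of 10258, 27 of 2516 and 382 of 1194. In footprints at 2 h, 2 neighbours were called with this filter. The replicate block gave 2 hosts called in footprints at 2 h (Tuba8 and, lower, Vat1). At 14 h it gave 6 in place of 4, with Zfp318 (0.14) and Angptl6 (-0.56) added. Over all genes the block called 3538 of 12104 at 2 h and 7609 of 12113 at 14 h, against 878 and 6361 without it. It removed the calls of Vat1 in total RNA (1.91) and of Art3 in TE (-6.19) at 2 h, and added that of A230050P20Rik in footprints at 2 h (0.63). Art3 in TE at 2 h also lost its call without any 1 of 6 libraries, Vat1 in total RNA at 2 h without IFN-β replicate 2 or 6 or vehicle replicate 3, 5 or 6, and Zbtb40 in TE at 2 h under total-count scaling (-1.87) and without any 1 of 6 libraries. Rprd1b in footprints at 14 h lost its call with DESeq2 (-0.21) and when vehicle replicate 3 (-0.19) or IFN-β replicate 2 (-0.20) was left out. Vat1 in footprints at 14 h lost its call without IFN-β replicate 4 (0.23), and Tuba8 in TE at 14 h without vehicle replicate 4 (-1.87). Angptl6 in footprints at 14 h gained a call without a count filter (-0.54) and with total-count scaling (-0.54). It also did so without vehicle replicate 1 (-0.66) or IFN-β replicate 4 (-0.68). Zfp318 in footprints at 14 h gained one without vehicle replicate 3 (0.19). Scaling by total counts moved the median of all genes in total RNA at 2 h from 0.04 to 0.23. An induced coding gene on the other strand was found for 5 hosts within 10 kb and for 4 when it had to overlap. No share over all coding genes was computed for these windows. Low total RNA counts of Cxcl10, Tgm2 and Ifi35 limit what can be read from them. Tmem140 and A230050P20Rik held at least 78 and 52 total RNA counts in every library.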
